A study of Rattus norvegicus with 7 samples.

Results

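The actin cytoskeleton genes and the serum response factor (Srf) targets of the rat lens are a list of 39 genes, taken by name as actins, tropomyosins, myosin chains, crosslinkers, proteins that link filaments to the membrane, proteins that handle actin monomers, and Srf with its target Ankrd1. Of the 39, 36 had a probe named by the platform annotation among the 36685 probes of the array, and 33 of these had a log2 signal above 5 in at least 1 array. Acta2, Cnn1 and Cnn2 had no probe named by it and are not analysed here. Tpm2, Tpm3 and Tmsb4x stayed at 5 or below in every array, with highest values of 2.79, 3.99 and 3.42, and were not tested. Closest to the limit of 5 was Myl9, whose highest value was 5.03, and of the genes below it Tpm3 came nearest, at 3.99. The limit was passed in Galactose arrays only by Acta1, Myl9, Aif1l and Ankrd1, so these genes entered the test through the group in which they were highest. In all 7 arrays, 22 genes were above 5.

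The lenses came from male Sprague Dawley rats aged 6 weeks and were cultured whole in serum-free medium with albumin, and 1 sample was hybridised to 1 array. The 2 Control lens samples were cultured without galactose, 1 for 4 days (Control Day 4) and 1 for 6 days (Control Day 6). The 3 Galactose samples spent 6 days in 30 mM galactose, a sugar that lens aldose reductase turns into an osmotically active alcohol and that makes the cultured lens opaque. The 2 Glutamate samples spent 6 days in 30 mM galactose with 20 mM glutamate added for the last 3 days, and the study took lenses whose opacity had declined for this group. Only Control Day 6 matches the other groups in time. The sources used here do not say whether samples of a group came from separate animals, so p-values measure the spread between these samples, which may be technical.

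Actin filaments shape the lens epithelial cell and brace the membrane of the elongated fibre cell, where they work together with spectrin, tropomyosin and tropomodulin. The pool of actin monomers also feeds back on transcription: monomers hold myocardin-related coactivators in the cytoplasm, and when filaments assemble the coactivators enter the nucleus and bind Srf. Srf itself sits on the CArG box, a short element with an A- and T-rich centre, in the promoters of many actin and actin binding genes.

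The promoters are shown first because Srf binding elements are what several of these genes are known to share. In the RefSeq promoter table for GRCr8, each entry runs from 250 bases before to 50 after a gene's start, and 34 of the 39 genes have an entry. Actb, Tagln, Myl9, Actn4 and Ankrd1 have none. A CArG box, searched on both strands (it reads as the same pattern on each), was found in 4 of the 34 genes (11.8%), against 485 of the 27457 genes with a promoter in the table (1.77%). The list was chosen by name as actin genes and Srf targets and holds Srf itself, so a higher share was likely beforehand. Those 4 were Acta1, Actg1, Cnn2 and Srf, with first bases at -94, -90, -71 and, for Srf, at -81 and -61 from the start. The sequences of 3 of them follow, with the CArG box in capitals, beside that of Csrp1, a gene described below whose window holds no match.
Acta1, chr19:68784145-68784444, minus strand: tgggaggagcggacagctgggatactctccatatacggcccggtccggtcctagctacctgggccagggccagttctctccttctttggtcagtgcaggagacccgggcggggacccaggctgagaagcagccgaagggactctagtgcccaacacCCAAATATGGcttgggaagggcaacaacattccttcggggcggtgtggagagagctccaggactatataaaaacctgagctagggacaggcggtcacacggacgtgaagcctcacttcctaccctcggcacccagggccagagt
Actg1, chr10:106120902-106121201, minus strand: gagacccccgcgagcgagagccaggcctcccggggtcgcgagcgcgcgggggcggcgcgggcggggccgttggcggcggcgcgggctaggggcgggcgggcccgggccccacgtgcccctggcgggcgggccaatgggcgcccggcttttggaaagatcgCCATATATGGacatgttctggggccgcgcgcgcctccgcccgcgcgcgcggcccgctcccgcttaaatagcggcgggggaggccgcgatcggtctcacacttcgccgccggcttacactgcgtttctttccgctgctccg
Srf, chr9:21923826-21924125, plus strand: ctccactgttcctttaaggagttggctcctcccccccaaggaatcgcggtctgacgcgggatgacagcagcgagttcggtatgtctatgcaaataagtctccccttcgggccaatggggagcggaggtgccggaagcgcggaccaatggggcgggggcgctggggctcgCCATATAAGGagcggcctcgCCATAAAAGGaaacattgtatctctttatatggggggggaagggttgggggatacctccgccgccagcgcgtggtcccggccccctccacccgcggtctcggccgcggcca
Csrp1, chr13:49709678-49709977, plus strand: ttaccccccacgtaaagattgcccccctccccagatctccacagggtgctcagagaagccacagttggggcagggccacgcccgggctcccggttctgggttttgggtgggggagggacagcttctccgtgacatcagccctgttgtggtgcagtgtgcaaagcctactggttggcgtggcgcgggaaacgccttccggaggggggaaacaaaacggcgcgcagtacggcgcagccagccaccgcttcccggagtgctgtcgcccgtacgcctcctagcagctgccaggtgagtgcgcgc
A match is a description of these letters and not a shown binding site.

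The values are log2 signals, so a difference of 1 is a 2-fold change. They were compared with limma over all 5320 named probes above 5 in at least 1 array, with p adjusted over these probes by the Benjamini-Hochberg method. No gene of the list passed an adjusted p of 0.05 in any of the 3 comparisons, and differences are therefore given below as values. Of the lens markers with a probe, 7 of 7 for fibres and 6 of 9 for epithelium were above 5 in all 7 arrays, and 8 of the 9 epithelial markers were above it in at least 1 array. Array medians over the tested probes ran from 5.55 to 5.77, except for 5.37 in Control Day 6. Control Day 6 was below Control Day 4 for 70.5% of the tested probes, and values without it are given where it moves a result.

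Galactose lenses carried more signal than Control lenses for most of the contractile and filament genes. The mean was higher in Galactose for 30 of the 33 genes, among them all 21 actins, tropomyosins, myosin chains and crosslinkers above 5 (Zyx was lower after a second quantile normalization), against 62.0% of all tested probes. Acta1, Myl9, Aif1l and Ankrd1 are among the 30, and they entered the test through Galactose arrays only. Without Control Day 6 the mean was higher for 26 of the 33, and Zyx (-0.46), Cnn3 (-0.02) and Myl12b (0.00) were then not higher, while without Control Day 4 Flna was not (-0.11). By the adjusted test 0 genes were called, where 0.0940% of all probes were, and at an unadjusted p under 0.05 limma gave 13 genes higher and 0 lower, where 11.8% of all probes were higher and 5.23% lower. Of the 13, Acta1, Aif1l and Ankrd1 were tested only because Galactose arrays passed the limit of 5, so they had to be high in Galactose. The other 29 genes held the remaining 10. Among these, Arpc3 was above 5 in all Galactose arrays and Glutamate 2 but in neither Control array. Without Control Day 6, Actg1, Tpm1, Arpc3, Cfl1 and Capzb no longer passed the unadjusted p. Every Galactose array was above both Control arrays for 17 genes and below both for 1, against 21.5% and 12.1% of all probes. The 17 include Acta1, Aif1l and Ankrd1, which were tested only through Galactose arrays. The median difference was 0.611 over the 33 genes, 0.597 over the 36 with a probe and 0.167 over all tested probes. A second quantile normalization left 27 genes with a higher mean in Galactose, 9 of them higher and none lower at an unadjusted p under 0.05, with 538 of all probes higher and 521 lower, in place of 626 and 278. Without Galactose 3 the 13 genes were 8 (6.71% of all probes higher), and with array weights 6 (6.58%).

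Of the actins, 3 were measured, and each was higher in every Galactose array than in Control. Acta1 encodes skeletal muscle alpha-actin, and its log2 signal was 4.18 at Day 4 and 3.75 at Day 6 of Control, then 5.82, 6.35 and 7.62 in Galactose, and 4.34 and 4.56 in Glutamate. The Galactose arrays stood above all others and spread over 1.81 among themselves, and the Control and Glutamate arrays lay below the limit of 5. The Galactose mean was 2.63 above the Control mean and Glutamate minus Galactose was -2.14. Since Acta1 was tested only through its Galactose arrays, these are descriptions with no test.

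Actg1 encodes cytoplasmic gamma-actin, and both its probes also match the related Actg1l1, so the genes cannot be told apart here. Its signal was 10.06 and 9.86 in Control, 11.22, 12.09 and 11.97 in Galactose, and 9.85 and 11.71 in Glutamate. All Galactose arrays exceeded Control, while Glutamate 1 was at the Control level and Glutamate 2 among the Galactose values. Galactose was 1.80 above Control (SE 0.55, limma adjusted p = 0.205) and 1.70 above it without Control Day 6, and the other probe of the gene gave 1.96. Glutamate minus Galactose was -0.98 with an SE of 0.55, and the groups overlapped. Actb, the cytoplasmic beta-actin often used as a reference transcript, measured 11.59 and 11.66 in Control, 11.91, 12.22 and 12.05 in Galactose, and 11.18 and 12.01 in Glutamate. Its Galactose arrays were all above Control, by a mean of 0.44 with a 95% interval from -0.23 to 1.10.

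**Figure D1:**
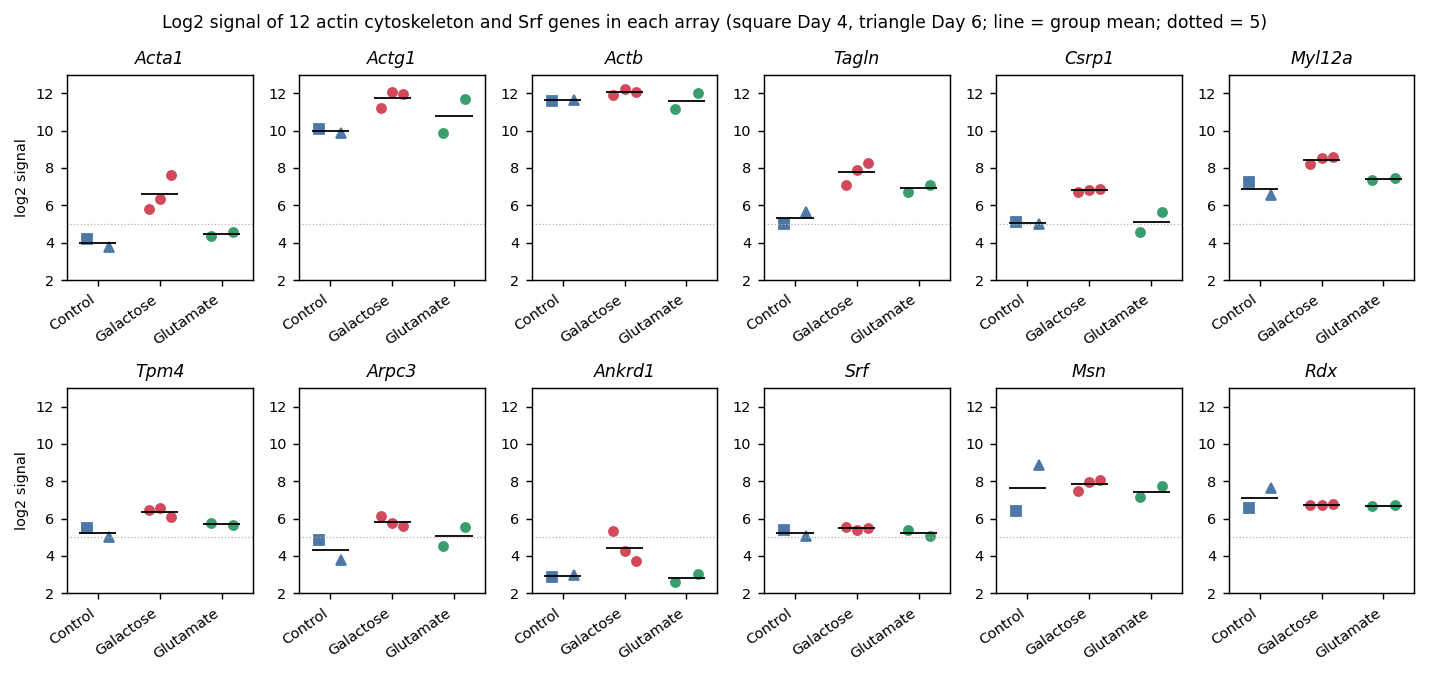
Log2 signal of 12 genes (vertical axis) in each array, by group; squares mark Control Day 4, triangles Control Day 6, circles the other arrays, lines the group means and the dotted line the limit of 5. For Acta1, Actg1, Tagln, Csrp1, Myl12a, Tpm4, Arpc3 and Ankrd1 every Galactose array lies above both Control arrays, and for Msn the Control arrays lie on either side of the rest.

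The tropomyosins, which wind along the filament and set which proteins may bind it, were measured for Tpm1 and Tpm4. Tpm4 was 5.48 and 4.99 in Control, 6.46, 6.56 and 6.08 in Galactose, and 5.75 and 5.64 in Glutamate. The 3 groups did not overlap and Glutamate lay between the others. Galactose was 1.14 above Control (SE 0.24, 2.20-fold, limma adjusted p = 0.129) and Glutamate minus Galactose was -0.68 (SE 0.24, limma adjusted p = 0.853). Tpm1 was 5.21 and 4.67 in Control, 5.82, 5.68 and 6.14 in Galactose, and 4.99 and 5.59 in Glutamate, so that its Galactose arrays were again the highest. Their mean was 0.94 above that of Control (SE 0.29, limma adjusted p = 0.205), and 0.67 above Control Day 4 alone.

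Among the chains of non-muscle myosin, the motor that pulls on actin filaments, Myl12a had the smallest p. It encodes a regulatory light chain and measured 7.24 and 6.53 in Control, 8.21, 8.52 and 8.58 in Galactose, and 7.37 and 7.46 in Glutamate. The 3 groups were separate and Glutamate was between Control and Galactose. Galactose was 1.56 above Control (SE 0.26, 2.94-fold, limma adjusted p = 0.0896), and Glutamate minus Galactose was -1.02 (SE 0.26, limma adjusted p = 0.611). Centring each array on its median brought the first to an adjusted p of 0.0398 in limma. Over the alternatives run it ranged from 0.00586 without Control Day 4 to 0.518 with a replicate block.

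Myl12b, which encodes a very similar light chain, was 7.72 and 6.55 in Control, 7.53, 7.68 and 7.96 in Galactose, and 7.22 and 6.81 in Glutamate. Here Control Day 4 fell within the Galactose range, and the difference of 0.59 (SE 0.37) was 1.18 against Control Day 6 alone and 0.00 against Control Day 4 alone. Myl9, the smooth muscle regulatory chain, was 4.12 and 3.15 in Control, 4.12, 4.14 and 5.03 in Galactose, and 3.73 and 4.31 in Glutamate, with all groups overlapping. Its Galactose mean was 0.31 above Control Day 4 and 1.28 above Control Day 6. The probe of Myl6, an essential light chain, also matches Myl6b, Myl6l and RGD1559821. It gave 4.85 and 4.94 in Control, 5.48, 5.07 and 5.16 in Galactose, and 5.33 and 5.35 in Glutamate, so both galactose-fed groups were above Control and overlapped each other. The heavy chains Myh9 and Myh10 differed between Galactose and Control by 0.61 (SE 0.29) and 0.39 (SE 0.33). Myh9 was 5.25 and 6.00 in Control, 6.29, 5.93 and 6.49 in Galactose, and 5.68 and 5.88 in Glutamate. Myh10 was 4.85 and 5.57, then 5.74, 5.58 and 5.48, then 4.82 and 5.67, so that for both heavy chains Control Day 6 was within or next to the Galactose values. Against Control Day 4 alone the differences were 0.99 for Myh9 and 0.76 for Myh10, and against Control Day 6 alone 0.23 and 0.03.

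The crosslinkers and filament binding proteins held 4 of the 13 genes past the unadjusted p: Tagln, Csrp1, Actn1 and Aif1l. Tagln, the smooth muscle transgelin and a textbook Srf target, was 4.999 and 5.64 in Control, 7.11, 7.90 and 8.28 in Galactose, and 6.74 and 7.11 in Glutamate. Both groups given galactose were above both Control arrays. Galactose was 2.44 above Control (SE 0.39, 5.44-fold, limma adjusted p = 0.0851), the smallest adjusted p of the list, and Glutamate was 1.61 above Control (SE 0.43, 3.04-fold, limma adjusted p = 0.721). Glutamate and Galactose met only in an identical value of Galactose 1 and Glutamate 2, 7.107035, with a difference of -0.84 (SE 0.39).

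Csrp1 encodes a LIM domain protein that binds alpha-actinin and zyxin. It measured 5.10 and 4.997 in Control, 6.73, 6.80 and 6.89 in Galactose, and 4.55 and 5.66 in Glutamate. The Galactose arrays agreed within 0.165 and stood above all others, while the Glutamate arrays were on either side of Control and 1.10 apart. Galactose was 1.76 above Control (SE 0.33, 3.39-fold, limma adjusted p = 0.109) and Glutamate minus Galactose was -1.71 (SE 0.33, 3.26-fold lower, limma adjusted p = 0.606). Glutamate and Control differed by 0.06, with a 95% interval from -0.80 to 0.91.

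Actn1, a non-muscle alpha-actinin that bundles filaments, was 5.26 and 5.92 in Control, 6.16, 6.59 and 6.89 in Galactose, and 5.39 and 5.80 in Glutamate. Only the Galactose arrays were above 6, with a mean 0.96 above Control (SE 0.32, limma adjusted p = 0.229; 1.29 against Day 4 and 0.62 against Day 6) and a Glutamate minus Galactose difference of -0.95 (SE 0.32, limma adjusted p = 0.816). Its paralog Actn4 was 8.30 and 8.10 in Control, 8.25, 8.82 and 9.01 in Galactose, and 8.67 and 8.26 in Glutamate, and all groups overlapped. Vcl, the vinculin of adhesion plaques, was 5.23 and 6.00 in Control, 6.02, 6.38 and 7.27 in Galactose, and 5.64 and 6.02 in Glutamate. Its values in Galactose 1 and Glutamate 2 were identical, 6.021475. Galactose and Control narrowly did not overlap for Vcl, and Galactose was 0.94 above Control (SE 0.42, limma adjusted p = 0.308), or 1.33 above Day 4 and 0.56 above Day 6. Aif1l, a calcium binding actin bundler, was 3.83 and 4.86 in Control, 5.39, 5.10 and 5.55 in Galactose, and 4.93 and 4.59 in Glutamate, and only its Galactose arrays passed 5. The Galactose mean of Aif1l was 1.52 above Control Day 4 and 0.49 above Control Day 6.

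The remaining crosslinkers overlapped between Galactose and Control. Flna, a filamin, was 5.64 and 6.37 in Control, 6.09, 6.03 and 6.67 in Galactose, and 6.07 and 6.41 in Glutamate. Tagln2, a transgelin of non-muscle cells, was 6.06 and 5.26 in Control, 6.02, 6.40 and 6.21 in Galactose, and 5.40 and 5.92 in Glutamate. Cnn3, an acidic calponin, was 8.25 and 7.40 in Control, 7.91, 8.27 and 8.53 in Galactose, and 8.33 and 8.25 in Glutamate. Galactose minus Control was 0.26 (SE 0.32) for Flna, 0.55 (SE 0.31) for Tagln2 and 0.41 (SE 0.31) for Cnn3, and for Tagln2 both Glutamate arrays lay below all Galactose arrays. Without Control Day 6 these differences were 0.63, 0.15 and -0.02, and without Control Day 4 they were -0.11, 0.96 and 0.84. Zyx, the adhesion protein zyxin, was 7.61 and 6.38 in Control, 6.93, 7.25 and 7.25 in Galactose, and 7.92 and 7.21 in Glutamate. Its Galactose arrays lay between the Control arrays, and its difference of 0.15 from Control was -0.46 without Control Day 6 and -0.07 after a second quantile normalization.

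Among the proteins that tie filaments to the membrane, Control Day 6 held the highest value of each gene, and no gene passed the unadjusted p. Msn (moesin) had a Control value of 6.40 at Day 4 and 8.86 at Day 6, and all other arrays were between these, at 7.497, 7.93 and 8.04 in Galactose and 7.16 and 7.74 in Glutamate. Galactose minus Control was 0.19 (SE 0.67), which was 1.42 against Control Day 4 alone and -1.04 against Control Day 6 alone. Rdx (radixin) was 6.58 and 7.64 in Control, 6.70, 6.70 and 6.76 in Galactose, and 6.67 and 6.70 in Glutamate. Its 5 galactose-fed arrays sat just above Control Day 4. The difference of -0.39 (SE 0.31) was therefore 0.14 against Control Day 4 and -0.92 against Control Day 6. Galactose 1, Galactose 2 and Glutamate 2 held an identical value, 6.703224. The narrow range of these arrays may thus not be the spread between samples. Ezr (ezrin) was 6.22 and 6.49 in Control, 6.09, 6.16 and 6.21 in Galactose, and 6.18 in each Glutamate array. It was the gene with every Galactose array below both Control arrays, with a difference of -0.21 and a 95% interval from -0.65 to 0.24. The difference was -0.07 against Control Day 4 and -0.34 against Control Day 6.

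The genes for monomer binding, severing, capping and branching held 3 genes past the unadjusted p: Arpc3, Cfl1 and Capzb. Arpc3, a subunit of the branching Arp2/3 complex, was 4.84 and 3.77 in Control, 6.13, 5.75 and 5.61 in Galactose, and 4.56 and 5.56 in Glutamate. Galactose was above both other groups, by 1.53 from Control (SE 0.42, limma adjusted p = 0.178; 0.99 from Day 4 and 2.07 from Day 6), and the Glutamate arrays were 1.01 apart. Arpc2, another subunit of the same complex, was 10.09 and 8.32 in Control, but 9.51, 9.51 and 9.53 in Galactose and 9.55 and 9.51 in Glutamate. Its galactose-fed arrays ran from 9.51 to 9.55, between the Control arrays, and its difference from Control was -0.57 without Control Day 6 and 1.20 without Control Day 4. For Arpc2, Galactose 1, Galactose 2 and Glutamate 2 again held an identical value, 9.513466.

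Pfn1, the monomer binding profilin, also had its Control arrays on either side of the rest: 9.89 and 8.51 in Control, 9.52, 9.65 and 9.66 in Galactose, and 9.41 and 9.44 in Glutamate. Its difference of 0.41 from Control was -0.29 without Control Day 6 and 1.10 without Control Day 4. Cfl1, a filament severing cofilin whose probe also matches Cfl1l1, was 7.38 and 6.36 in Control, 7.57, 8.01 and 7.71 in Galactose, and 6.99 and 7.24 in Glutamate. Galactose was the highest group without overlap and was 0.89 above Control (SE 0.33, limma adjusted p = 0.264), a value of 0.38 against Control Day 4 alone. Capzb, which caps filament ends, was 6.995 and 6.35 in Control, 7.02, 7.75 and 7.44 in Galactose, and 6.79 and 6.84 in Glutamate, with Galactose 0.73 above Control (SE 0.30, limma adjusted p = 0.287). For Capzb the Galactose arrays were again above all others, but without Control Day 6 the difference was 0.40 and limma gave an unadjusted p of 0.23. Tmsb10, a thymosin that binds monomers, was 6.26 and 5.16 in Control, 6.54, 6.41 and 6.30 in Galactose, and 6.20 and 5.91 in Glutamate. Cfl2, the muscle cofilin, was 7.26 and 6.67 in Control, 7.12, 6.85 and 6.85 in Galactose, and 6.72 and 6.61 in Glutamate. Galactose stood above both other groups for Tmsb10, by 0.71 from Control (SE 0.34), a value of 0.16 without Control Day 6 and 1.26 without Control Day 4. It overlapped Control for Cfl2, with a difference of -0.03 (SE 0.24) that was -0.32 without Control Day 6 and 0.27 without Control Day 4.

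The groups overlapped for Srf itself, and its target Ankrd1 was higher in every Galactose array than elsewhere. Srf was 5.37 and 5.05 in Control, 5.57, 5.37 and 5.49 in Galactose, and 5.37 and 5.09 in Glutamate. Control Day 4, Galactose 2 and Glutamate 1 held an identical value, 5.365262, and Galactose overlapped the other groups only through this tie. Galactose minus Control for Srf was 0.27 with a 95% interval from -0.22 to 0.76. Ankrd1, a stress-responsive ankyrin repeat protein of striated muscle, was 2.87 and 3.003 in Control, 5.35, 4.28 and 3.72 in Galactose, and 2.58 and 3.05 in Glutamate. The Galactose arrays were all above the rest, spread over 1.64, and only the first passed 5. The difference from Control was 1.51 and Glutamate minus Galactose was -1.64. As for Acta1, these describe a gene that was tested only because a Galactose array was high.

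**Figure D2:**
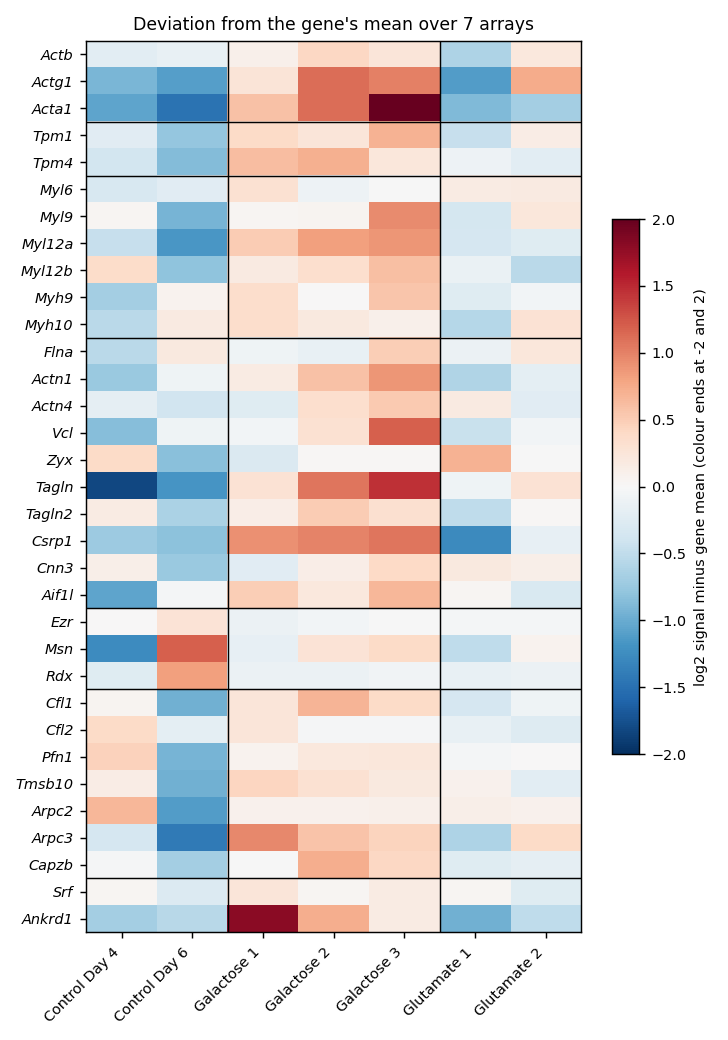
Log2 signal of each of the 33 genes minus the gene's mean over 7 arrays (colour, red above and blue below), with arrays in columns by group and genes in rows by role. The Galactose columns are mostly red, with array medians of 0.244 to 0.393, and Control Day 6 is the bluest column, with a median of -0.677, apart from Msn, Rdx and a few others.

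Grouped by role, the median difference, Galactose minus Control, was 1.80 for the 3 actins, 1.04 for the 2 tropomyosins, 0.60 for the 6 myosin chains, 0.75 for the 10 crosslinkers and filament binding proteins, 0.71 for the 7 genes of monomer handling and branching, and -0.21 for the 3 proteins that link to the membrane. The actins, myosin chains and crosslinkers include Acta1, Myl9 and Aif1l, which passed the limit of 5 in Galactose arrays only. Without Control Day 6 the same medians were 1.70, 0.78, 0.57, 0.96, 0.16 and 0.14, so that for the proteins that link to the membrane the sign turned, and without Control Day 4 they were 1.90, 1.30, 0.73, 0.70, 1.20 and -0.92. Without Control Day 6 the list had 11 genes higher (8.38% of all probes) and 1 lower, Arpc2 (10.7%), by the unadjusted p, with a median of 0.474 against -0.020 for all probes. Without Control Day 4 it had 15 genes at an adjusted p under 0.05, 14 of them higher and Rdx lower, where 32.3% of all probes were called, and its median was 0.955 against 0.321. The fit without a Control array takes the remaining one to vary as the other groups do. Acta1, Aif1l and Ankrd1 among the 11, and Acta1 among the 14, were tested only through Galactose arrays. Arpc2, counted in both fits, and Rdx each held an identical value in Galactose 1, Galactose 2 and Glutamate 2. Their narrow range may not be the spread between samples, so their places in these counts are descriptions.

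**Figure D3:**
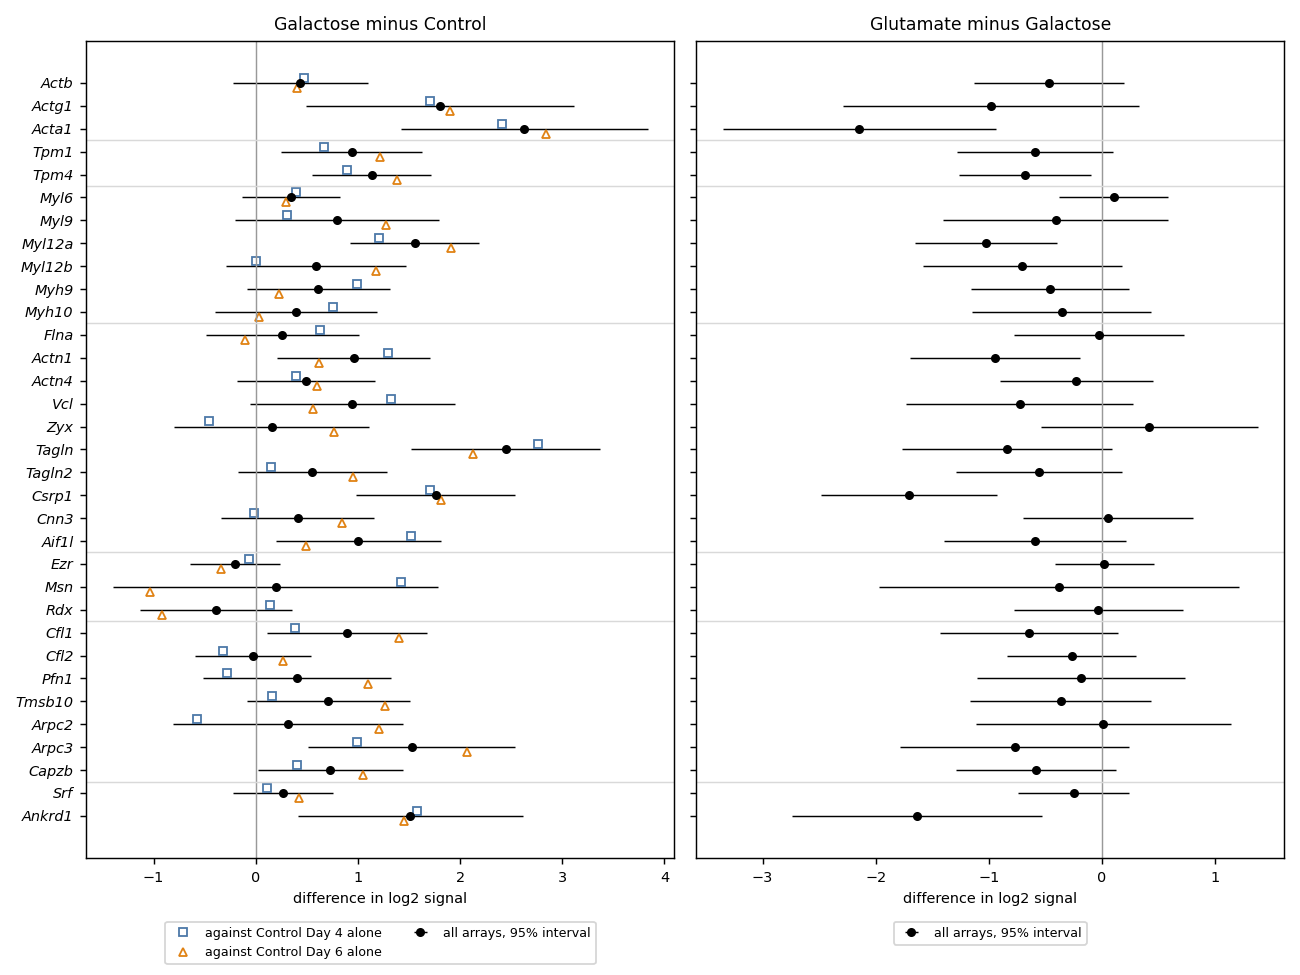
Difference in log2 signal for the 33 genes by role, Galactose minus Control on the left and Glutamate minus Galactose on the right; dots and bars are the limma estimates with 95% intervals, squares the values against Control Day 4 alone and triangles against Control Day 6 alone. Acta1, Tagln, Csrp1 and Myl12a lie right of 0 against either Control array, whereas Msn, Rdx, Arpc2, Pfn1, Zyx, Flna, Cfl2 and Cnn3 have a square and a triangle on opposite sides of 0.

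Lenses given glutamate on top of galactose had lower means than Galactose lenses for most of the list. The Glutamate mean was below the Galactose mean for 28 of 33 genes and above it for 5, where 35.4% of all tested probes were above. Acta1, Myl9, Aif1l and Ankrd1, which passed the filter limit in Galactose arrays only, are among the 28. No gene was called by adjusted p (0% of all probes). At an unadjusted p under 0.05 limma gave 0 genes higher (1.13% of all probes) and 6 lower (4.40%), which were Acta1, Csrp1, Ankrd1, Myl12a, Actn1 and Tpm4. Acta1 and Ankrd1 among them were tested only through Galactose arrays, which leaves 4 of the other 29 genes. No gene had both Glutamate arrays above all Galactose arrays (7.76% of all probes), and 17 had both below (21.7%). Acta1, Aif1l and Ankrd1, tested only through Galactose arrays, are among these 17. The median difference was -0.467 for the 33 genes, -0.432 for the 36 with a probe and -0.110 for all probes. This comparison shares the Galactose arrays with the one before it, so high Galactose values of a gene enter both. When the spread was estimated without Control Day 6, 10 genes were lower at an unadjusted p under 0.05, where 9.83% of all probes were, and again 0 had an adjusted p under 0.05. Without Glutamate 1 the 6 genes were 3 (3.12% of all probes lower), and with array weights 12 (11.9%). A second quantile normalization gave 5 genes lower and 0 higher by the unadjusted p, with 138 of all probes higher and 156 lower in place of 60 and 234.

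The Glutamate arrays also differed from each other. Glutamate 2 was above Glutamate 1 for 22 of the 33 genes, below for 10 and equal for Ezr, with a median gap of 0.193, while over all tested probes Glutamate 2 was above in 36.5% with a median of -0.092. At least 2-fold higher in Glutamate 2 were Actg1 (by 1.86), Csrp1 (by 1.10) and Arpc3 (by 1.01). No gene of the list was at least 2-fold lower in it. Without Glutamate 1 the median difference of the list from Galactose was -0.323, and without Glutamate 2 it was -0.624.

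**Figure D4:**
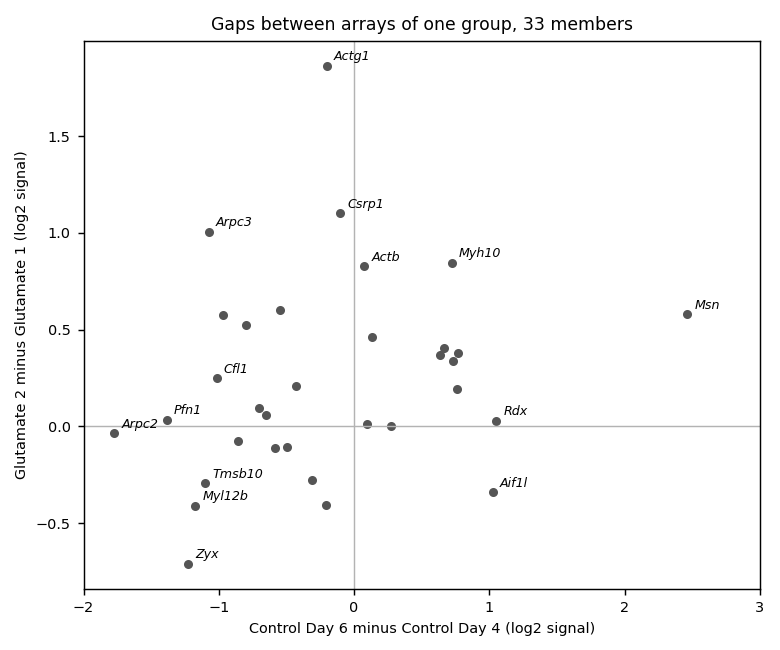
For each of the 33 genes, the gap between the Control arrays (Day 6 minus Day 4, horizontal axis, log2 signal) and between the Glutamate arrays (2 minus 1, vertical axis, log2 signal). Actg1, Csrp1 and Arpc3 lie at or above 1 on the vertical axis, and Arpc2 (-1.77) and Msn (2.46) are the ends of the horizontal axis.

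Between the Control arrays, Day 6 was below Day 4 for 20 genes and above it for 13, with a median gap of -0.310, against -0.399 over all tested probes. At least 2-fold lower at Day 6 were 7 genes, Arpc2, Pfn1, Zyx, Myl12b, Tmsb10, Arpc3 and Cfl1, and at least 2-fold higher were Msn, Rdx and Aif1l. Time in culture and differences between single samples cannot be told apart in these arrays.

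Between Glutamate and Control lenses the median difference was 0.232 over the 33 genes, 0.226 over the 36 with a probe and 0.059 over all probes. By adjusted p 0 genes were called (0% of all probes). At an unadjusted p under 0.05 limma gave 1 gene higher, Tagln (2.93% of all probes), and 0 lower (3.68%). Both Glutamate arrays were above both Control arrays for 5 genes (13.3% of all probes), which were Acta1, Tpm4, Myl6, Myl12a and Tagln, and below both for 1, Ezr (15.0%). Without Control Day 6 the list had 3 genes higher (3.08%) and 4 lower (9.61%) by the unadjusted p and a median of 0.076, against -0.148 over all probes. Without Control Day 4, 5 genes had an adjusted p under 0.05 (16.5% of all probes): Pfn1, Tmsb10 and Arpc2 higher, Msn and Rdx lower. Arpc2, which is also among the 4 lower without Control Day 6, and Rdx held values identical in Galactose 1, Galactose 2 and Glutamate 2. Their narrow range may not be the spread between samples. Aif1l, among the 3 higher without Control Day 6, was tested only through Galactose arrays. Over the 3 groups, the Galactose mean was the highest for 26 of the 33 genes, as for 49.7% of all tested probes. The Control mean was the lowest for 25, as for 49.0%. The 26 include Acta1, Myl9, Aif1l and Ankrd1, which passed the limit of 5 in Galactose arrays only.

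Acta1, Tagln and Ankrd1 are also genes of muscle, and muscle markers were measured beside them. Of 6 smooth muscle markers with a probe, Des alone was above 5 in any array, and Myh11 was at 2.89 or below. The summed linear signal of the smooth muscle list was 118 to 135 in Control, 59.4 to 63.6 in Galactose and 68.2 to 119 in Glutamate. Des, the intermediate filament protein of muscle, was 6.26 and 6.04 in Control, 4.24, 3.92 and 4.12 in Galactose, and 6.23 and 4.48 in Glutamate. The sum of the other 5 markers was 41.6 to 69.2 in Control, 40.5 to 46.2 in Galactose and 43.7 to 45.9 in Glutamate, and the groups overlapped in it. Of 7 skeletal muscle markers 1 was above 5, with sums of 86.0 to 108, 86.5 to 96.3 and 93.9 to 101 in the same order. No marker of fibroblasts (of 6), iris and ciliary pigment epithelium (of 6), retina (of 4), endothelium (of 3) or erythrocytes (of 1) was above 5, and 1 of 6 leukocyte markers was, with sums of 53.3 to 56.3 in Control, 59.6 to 77.1 in Galactose and 73.6 to 82.5 in Glutamate. The summed signal of the lens epithelial list was 1867 to 2342 in Control, 944 to 1757 in Galactose and 1595 to 2220 in Glutamate. Maf had the highest signal of that list in every array and so weighs most in the sum. Single markers of the list did not move together. Foxe3 was 6.88 and 6.25 in Control, 4.06, 4.89 and 4.89 in Galactose, and 5.85 and 6.05 in Glutamate. Cdh1 was 7.80 and 7.81 in Control, 6.97, 8.30 and 8.49 in Galactose, and 7.73 and 7.19 in Glutamate. The list median was 7.23 and 6.74 in Control, 6.37, 7.21 and 7.30 in Galactose, and 7.03 and 7.19 in Glutamate. The groups overlapped in this median. The summed signal of the lens fibre list was 29183 to 31093, 29941 to 30444 and 31217 to 31784 in the same order. Their part in the differences was not tested. In whole lenses, fewer cells of a type and less RNA per cell cannot be told apart.

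Other genes of the pathway were grouped into 3 further lists, in which no gene passed an adjusted p of 0.05 in any comparison, and single genes in them that passed the unadjusted p are named after their values were seen. Of 18 other genes of actin assembly, 1 was higher in Galactose than in Control at an unadjusted p under 0.05, the capping subunit Capza1 (0.51, SE 0.21), where 11.8% of all probes were higher, and the median was 0.338. Capza1 did not pass after a second quantile normalization (limma unadjusted p = 0.349) or median centring (limma unadjusted p = 0.217). In Glutamate against Galactose 3 of the 18 were lower at an unadjusted p under 0.05, Capza1 (-0.55), the branching subunit Arpc5 (-0.84) and the capping protein Capg (-0.96), where 4.40% of all probes were lower, with a median of -0.067. Capg was tested only because Galactose 1 passed the limit of 5, at 5.43, so its value is a description with no test. Capza1 again did not pass after either scaling. Cap1 and Wdr1, which help to recycle actin, had the highest mean signals and differed from Control by 0.43 (SE 0.24) and 0.55 (SE 0.26) in Galactose. Of 14 other Srf targets and adhesion genes, Tln1 (0.47, SE 0.18), the integrin binding talin, was higher at an unadjusted p under 0.05. Fhl1 (-0.76, SE 0.32), a LIM protein of muscle, and Coro1c (-0.61, SE 0.24), a coronin, were lower by the same limit. Tln1 did not pass after a second quantile normalization (limma unadjusted p = 0.183) or median centring (limma unadjusted p = 0.196). The difference of Fhl1 was -0.49 without Control Day 4, and that of Coro1c was -0.42 without Control Day 6. Of all probes 11.8% were higher and 5.23% lower, and the median of the 14 genes was -0.001. Lims1, an adhesion adaptor that led this list by mean signal together with Wdr1, had Control values of 6.70 at Day 4 and 8.69 at Day 6, and 6.34 to 6.94 in Galactose, so its value of -0.95 was 0.04 without Control Day 6. Of 8 genes of the spectrin membrane skeleton 0 passed the unadjusted p, with median differences of -0.228 for Galactose minus Control and 0.311 for Glutamate minus Galactose. Its leading genes by mean signal, Sptan1 and Epb41, differed between Galactose and Control by -0.28 (SE 0.34) and -0.29 (SE 0.31).

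Genes outside the list with a CArG box in the same promoter window were set beside it, a description added after the values of the list were seen. Of 58 such genes on tested probes, 6.9% were higher and 6.9% lower in Galactose than in Control at an unadjusted p under 0.05, against 11.6% and 5.3% of 4169 genes with a promoter and no match. Each share of the 58 rests on 4 genes. After a second quantile normalization the shares were 8.6% higher and 8.6% lower, against 10.1% and 9.8%. The median differences were 0.157 and 0.159, and without Control Day 6 they were -0.006 and -0.026. Within the list, of the 4 genes with a match Acta1 and Actg1 had differences of 2.63 and 1.80 and Srf of 0.27, Cnn2 had no probe, and Csrp1, with no match in its window, had 1.76.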

How the data were processed

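RNA of 7 lens samples was measured on GeneChip Rat Gene 2.0 ST arrays. The deposited table holds 1 log2 signal per probe and array, made by the authors with the Robust Multi-array Average algorithm applied jointly to every array. Gene names of probes are those of the platform annotation (18511 with 1 gene, 575 with several, 17599 with none, left out), and named probes above 5 in at least 1 array were kept. For each gene the probe with the highest mean was used. The comparisons used limma 3.58.1 under R 4.3.3 (1 mean per group, 4 residual degrees of freedom), and the script was tested on simulated data. The genes and lists were chosen with earlier results of these data known. Every listed gene was accounted for, and of each pathway list the 2 genes with the highest mean signal were named. One further pathway list is not reported here. Alternatives were other filters, second normalizations, averaged probes, another variance model, array weights, the compared arrays alone, a replicate block and leaving out each array. The number of arrays limits the precision. Promoters are from RefSeq (GRCr8).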

Additional observations from a re-analysis of the deposited data

How the results depend on the processing

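Over all tested probes, 5 were called between Galactose and Control. The count was 0 with no filter on low values, 11 with a filter at 6, 20 after a second quantile normalization, 45 after median centring, 0 with array weights, 1 with the compared arrays alone, and from 0 to 1717 when each array was left out, the highest without Control Day 4. Between Glutamate and Galactose 0 were called, and 1 with array weights. Between Glutamate and Control 0 were called, 1 after the second quantile normalization, 1 after median centring, and 0 to 880 with an array left out, again highest without Control Day 4. These settings changed single choices, and the cause of each move was not tested. The median of all probes between Galactose and Control moved from 0.167 to 0.005 under the second quantile normalization and to 0.018 under centring, and the share of higher probes from 62.0% to 50.3% and 51.4%. Between Glutamate and Galactose it moved from -0.110 to 0.014 and 0.005, with 35.4%, 52.0% and 50.6% higher. The list's median difference between Galactose and Control, 0.611, was 0.405 and 0.462 under these scalings and 0.474 to 0.955 with an array left out. That between Glutamate and Galactose was -0.624 to -0.323 and that between Glutamate and Control 0.076 to 0.401 with an array left out.

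No gene of the list past the unadjusted p changed sign under any alternative run. The genes not past it changed sign in 14 of 315 values for Galactose and Control, 14 of 424 for Glutamate and Galactose and 34 of 503 for Glutamate and Control. The genes past it were picked for differences large against their SE in these same arrays. Their unchanged sign was therefore likely beforehand. The 13 genes higher in Galactose were 6 with array weights (6.58% of all probes) and 8 without Galactose 3 (6.71%). The 6 lower in Glutamate were 12 with array weights (11.9%), 10 with the compared arrays alone (9.83%) and 3 without Glutamate 1 (3.12%). With the number of the Galactose and Glutamate samples as a replicate block and Control outside it, 0 probes were called between Galactose and Control, and 3 genes of the list (1.80% of all probes) were lower in Glutamate at the unadjusted p. Galactose and Glutamate samples that share a number deviated from their group means with correlations of -0.03 and 0.06, and nothing else ties them, so they were treated as sharing only a number. The Control labels give a day and no number.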
